A study of Mus musculus with 2 samples.

Results

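The CDK inhibitor genes are 7 genes in 2 families: the CIP/KIP genes Cdkn1a (p21), Cdkn1b (p27) and Cdkn1c (p57), and the INK4 genes Cdkn2a (p16 and ARF), Cdkn2b (p15), Cdkn2c (p18) and Cdkn2d (p19). They were chosen by family membership, not by level, and found by matching Ensembl gene identifiers without version to the GENCODE mouse annotation. All 7 were present among the 43346 Ensembl genes of the tables, of which 21461 are nuclear protein-coding genes. The data are total RNA-seq of primary erythroid progenitor cells of the CFU-Ery stage (colony-forming unit, erythroid) from adult male C57BL/6J mice aged 5 to 6 weeks. There are 2 libraries, biological replicates 1 and 2 of 1 group, each made from 1 ng of RNA with fragments of 150 to 400 nt and RNA spike-ins. No genotype, treatment or other cell type was compared. Both libraries carry the same donor record and separate biosample records, so their spread may in part be technical.

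INK4 proteins bind the kinases CDK4 and CDK6 and keep them from pairing with D-type cyclins, which holds the retinoblastoma protein in its active, growth-restraining form. CIP/KIP proteins bind cyclin-CDK complexes, chiefly those of CDK2, and the same proteins also help D-type cyclins assemble with CDK4. Erythroid progenitors divide a limited number of times before they leave the cell cycle and lose their nucleus, and p27 and p18 have been studied as inhibitors in that exit.

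The INK4 genes are related in their coding sequence, and sharing of sequence bears on whether reads can be assigned to 1 member. The coding windows below are those of Cdkn2c and Cdkn2d, shown because these were the INK4 genes with counts. They surround the longest run that the coding sequences of both hold, 11 bases, which the capitals mark. They are read 5′ to 3′ from GRCm38 on the minus strand.
Cdkn2c: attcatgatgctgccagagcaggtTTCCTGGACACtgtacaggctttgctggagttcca
Cdkn2d: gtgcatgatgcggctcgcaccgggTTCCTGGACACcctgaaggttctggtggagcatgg
These windows lie at chr4:109661478-109661536 (Cdkn2c) and chr9:21289184-21289242 (Cdkn2d), and 38 of their 59 bases are the same. Between the whole coding sequences of any pair of the 7 members the longest common run was 8 to 23 bases. None of the 21 pairs shared a 25-base stretch in any of their 21 annotated transcripts.

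Reads that match several genes alike leave fractional counts. The deposited expected counts, which are estimated reads per gene and need not be whole, were whole numbers to within 0.01 in both libraries for 5 of the 5 members that had counts. The same held for 7541 of 9207 nuclear protein-coding genes with at least 10 counts in both libraries, or 81.9%. Only 3 members reach that minimum, since Cdkn1a had 5 counts and Cdkn1c 0 in replicate 1, and a count of 0 is always whole.

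The library totals were 143491647 expected counts in replicate 1 and 110634458 in replicate 2, but nuclear protein-coding genes took only 3.29% and 3.70% of them. Mitochondrial rRNA took 81.2% and 79.0%. The 7 members held 2924 and 2512 counts, a near-equal 620 and 614 for each 1000000 nuclear protein-coding counts. Deposited TPM (a level per length, scaled to a fixed total) counts the rRNA in its total, so levels are also given as rescaled TPM, in which that fixed total is the sum over nuclear protein-coding genes. This multiplied TPM by 43.1 in replicate 1 and 37.0 in replicate 2. With 2 libraries the smallest p of an exact sign-flip test is 0.5, so levels are described with their SD and with 95% Poisson intervals, which cover counting error only. In bulk RNA, a gene used by few cells and a gene with little RNA in every cell cannot be told apart.

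Of the 7 CDK inhibitor genes, 3 were at 1 TPM or more in both libraries: Cdkn2d, Cdkn2c and Cdkn1b. At that level stood 12.6% of nuclear protein-coding genes. The same 3 members passed at 1 rescaled TPM, where the background was 44.6%, and at 10 expected counts, where it was 42.9%. The lowest member above 1 TPM was Cdkn1b, and those next below were Cdkn1a at 0.02 and 0.07 TPM and Cdkn1c at 0 and 0.10 TPM. Of the summed member TPM, Cdkn2d made 55.2% ± 3.83 (SD, n = 2), Cdkn2c 32.2% ± 1.85 and Cdkn1b 12.0% ± 2.60.

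**Figure D1:**
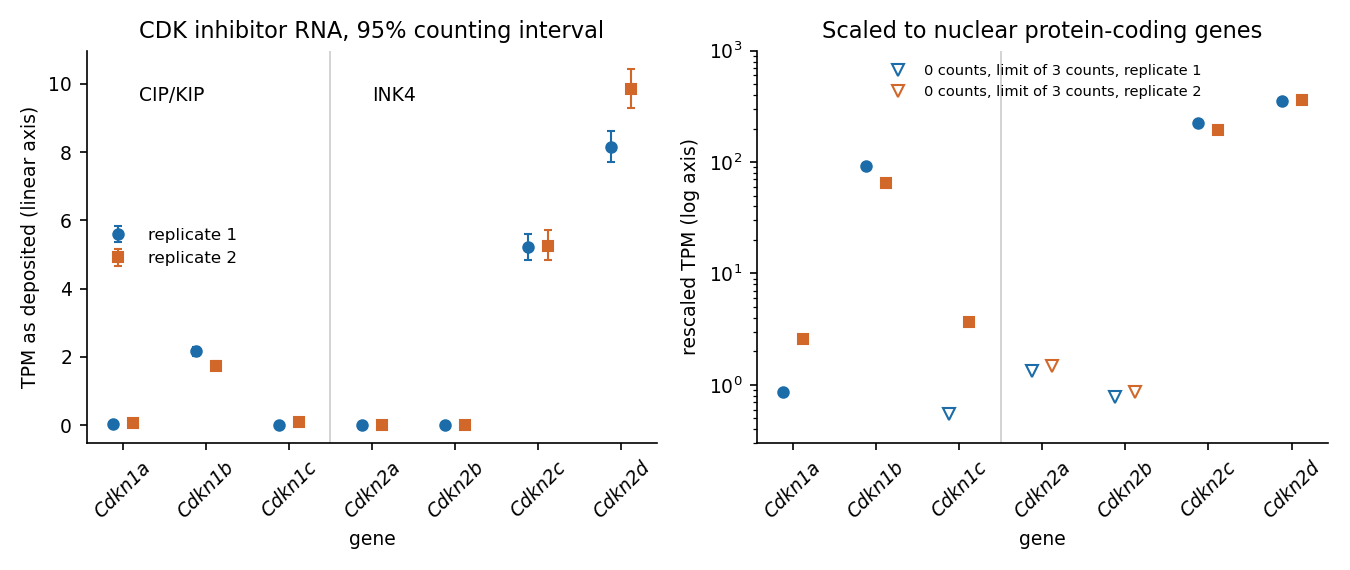
Level of each CDK inhibitor gene in the 2 libraries, as deposited TPM on a linear axis with 95% counting intervals (left) and as rescaled TPM on a log axis (right), where open triangles mark the limit of 3 counts for genes with 0 counts. Cdkn2d, Cdkn2c and Cdkn1b stand at 64.4 rescaled TPM or more in both libraries, and the other 4 genes at 3.70 or less.

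Cdkn2d, which encodes the CDK4 and CDK6 inhibitor p19, was the most abundant member. It lies on chromosome 9, 21288410 to 21291407, minus strand (ENSMUSG00000096472.1). It had 1225 expected counts in replicate 1 (interval 1157 to 1296) and 1154 in replicate 2 (1088 to 1223). Its level was 8.16 and 9.86 TPM, or 9.01 ± 1.20 (SD, n = 2), and 352 and 365 rescaled TPM. That placed it at the 98.3 and 98.5 percentile of nuclear protein-coding genes. Replicate 2 was the higher library on both scales.

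Cdkn2c, which encodes the CDK4 and CDK6 inhibitor p18, was the second. It lies on chromosome 4, 109660876 to 109667189, minus strand (ENSMUSG00000028551.10). Its counts were 734 (682 to 789) and 592 (545 to 642). Its level was 5.22 and 5.27 TPM, and 225 and 195 rescaled TPM, at the 97.3 and 97.0 percentile. The deposited TPM was almost equal in the 2 libraries, while the rescaled level was higher in replicate 1.

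Cdkn1b, which encodes p27, was the only CIP/KIP gene at 1 TPM or more. It lies on chromosome 6, 134920401 to 134925513, plus strand (ENSMUSG00000003031.10). Its counts were 960 (900 to 1023) and 735 (683 to 790). Its level was 2.16 and 1.74 TPM, or 1.95 ± 0.297 (SD, n = 2), and 93.2 and 64.4 rescaled TPM, at the 93.0 and 90.5 percentile. Replicate 1 was the higher library on both scales.

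The order Cdkn2d, Cdkn2c, Cdkn1b held in both libraries beyond the counting intervals. The log2 ratio of Cdkn2d to Cdkn2c was 0.64 (0.51 to 0.78) and 0.90 (0.76 to 1.05). That of Cdkn2c to Cdkn1b was 1.27 (1.13 to 1.41) and 1.60 (1.44 to 1.75). This second step is a level per length: in expected counts Cdkn1b, whose effective length was greater, exceeded Cdkn2c in both libraries. The 4 INK4 genes summed to 13.38 and 15.13 TPM against 2.18 and 1.91 for the 3 CIP/KIP genes, a ratio of 6.97-fold (log2 2.80 ± 0.26, SD, n = 2). In expected counts, without length, that log2 ratio was 1.11.

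Cdkn1a, which encodes p21 and is a classical target of p53, had 5 counts (1.62 to 11.7) in replicate 1 and 12 (6.20 to 21.0) in replicate 2. It lies on chromosome 17, 29090976 to 29100727, plus strand (ENSMUSG00000023067.9). Its level was 0.02 and 0.07 TPM, or 0.863 and 2.59 rescaled TPM. The counting intervals of the 2 libraries overlap. The log2 ratio of replicate 1 to replicate 2 was -1.59 (-3.09 to -0.08) on rescaled TPM, an interval that excluded 0. As log2(TPM + 1), centred on the median over genes, the difference was -0.02 (-0.08 to 0.04). Cdkn1b exceeded it by 5.70 ± 1.50 on the log2 scale (SD, n = 2).

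Cdkn1c, which encodes p57 and is expressed from the maternal copy as an imprinted gene, had 0 counts in replicate 1 and 19 (11.4 to 29.7) in replicate 2. It lies on chromosome 7, 143458339 to 143461050, minus strand (ENSMUSG00000037664.8). The 0 counts allow a level of up to 0.0128 TPM, or 0.551 rescaled TPM, against 0.10 TPM and 3.70 rescaled TPM in replicate 2. A gene with 0 in 1 library and at least that count in the other was uncommon over all genes with a count, at 2.04%. Among genes whose higher count lay within 2-fold of that of Cdkn1c, 23% had 0 in the other library. The level of Cdkn1c in these cells thus rests on 1 library. Cdkn1a and Cdkn1c could not be ordered, since Cdkn1a had more counts in replicate 1 and fewer in replicate 2.

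Cdkn2a and Cdkn2b, neighbours on chromosome 4 with 11646 bases between them, had 0 counts in both libraries. Cdkn2a (89274471 to 89294653, minus strand, ENSMUSG00000044303.6) encodes the CDK inhibitor p16 and, from another first exon, ARF, which acts on MDM2 and not on a CDK. Both of its transcripts were listed at 0, the p16 form with its first exon at 89281986 to 89282192 and the ARF form with its first exon at 89294334 to 89294653. The 0 counts allow up to 1.33 and 1.46 rescaled TPM of Cdkn2a. For Cdkn2b (89306299 to 89311039, minus strand, ENSMUSG00000073802.4), which encodes p15, they allow up to 0.779 and 0.857 rescaled TPM. Beyond the pair, Mtap had 9 and 62 counts and Dmrta1 had 0 in both libraries.

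The detected members also differ in how their transcripts were divided. The deposited tables hold 2 transcripts of Cdkn1b, which share the same 591-base coding sequence. The longer, ENSMUST00000067327.6 (4552 nt, 2 exons), took 50.85% of the gene in replicate 1 and 84.74% in replicate 2. The shorter, ENSMUST00000003115.6 (2393 nt, 3 exons), took 49.15% and 15.26%. They are told apart by an intron at chromosome 6, 134922084 to 134924242, in the 3′ untranslated region, 12 bases past the last annotated coding base. The longer form stood at 1.10 and 1.48 TPM and the shorter at 1.06 and 0.27 TPM.

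The shares differed by 33.89 percentage points between the libraries. Over 1237 genes with several transcripts and at least 500 counts in both libraries the median difference was 12.2 points, and 12.3% differed by over 30 points. Among the 137 of them with 2 transcripts the median was 2.31 points and 8.03% differed by over 30 points. The counts of the longer form were close, at 642.58 and 673.1, while those of the shorter form were 317.42 and 61.9.

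**Figure D2:**
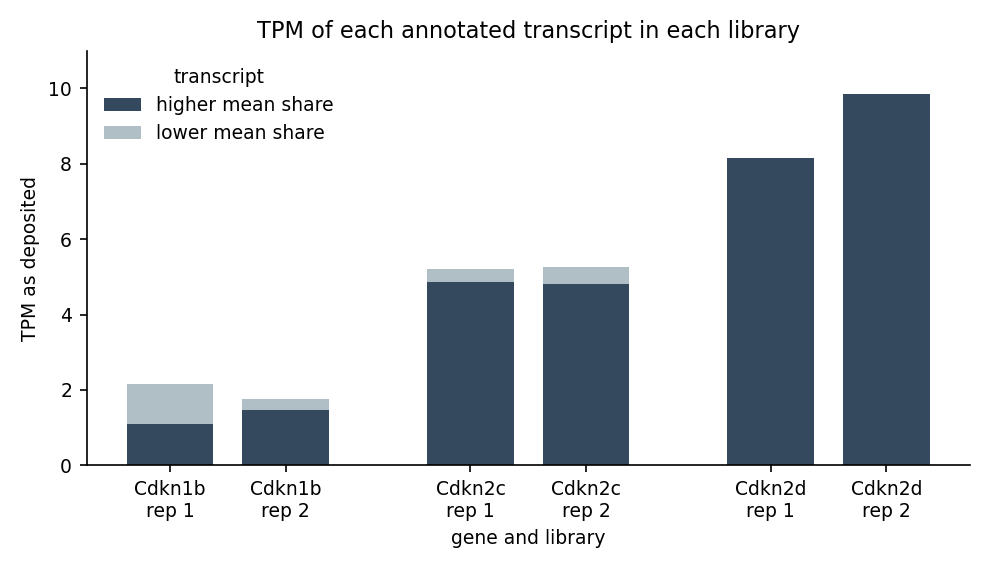
Deposited TPM of each annotated transcript of Cdkn1b, Cdkn2c and Cdkn2d in each library, stacked to the level of the gene, with the transcript of higher mean share in dark. The shorter Cdkn1b form stands at 1.06 TPM in replicate 1 and 0.27 in replicate 2, while the division of Cdkn2c is nearly the same in both.

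This division sets the length that the level of Cdkn1b is divided by. Its effective length in the tables was 3354.85 nt in replicate 1 and 4083.11 nt in replicate 2. With 1 length for both libraries, an alternative chosen after seeing the data, Cdkn1b stood at 1.95 and 1.91 TPM in place of 2.16 and 1.74.

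Cdkn2c has 2 transcripts with the same 504-base coding sequence and starts 1817 nt apart. The form with the downstream start, ENSMUST00000063531.4 (1106 nt, first exon 355 nt), took 93.13% and 91.14% of the gene. The form with the upstream start, ENSMUST00000097921.5 (2471 nt, first exon 1580 nt), took 6.87% and 8.86%. The shares differed by 1.99 points, beside the median of 2.31 points over the 137 genes with 2 transcripts. Over the 1237 genes with any number of transcripts, 89.1% differed by more.

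Cdkn2d has 1 transcript in the tables, ENSMUST00000086374.6 (1271 nt). In GENCODE M21 the model of that identifier is 1264 nt long, holds a 52-nt middle exon at chromosome 9, 21290425 to 21290476, and has a coding length of 150 nt. Another M21 transcript without that exon, ENSMUST00000215619, has a coding length of 498 nt, and it is absent from the tables. Which form the reads came from, and the part of the older gene model in the level of Cdkn2d, was not tested.

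**Figure D3:**
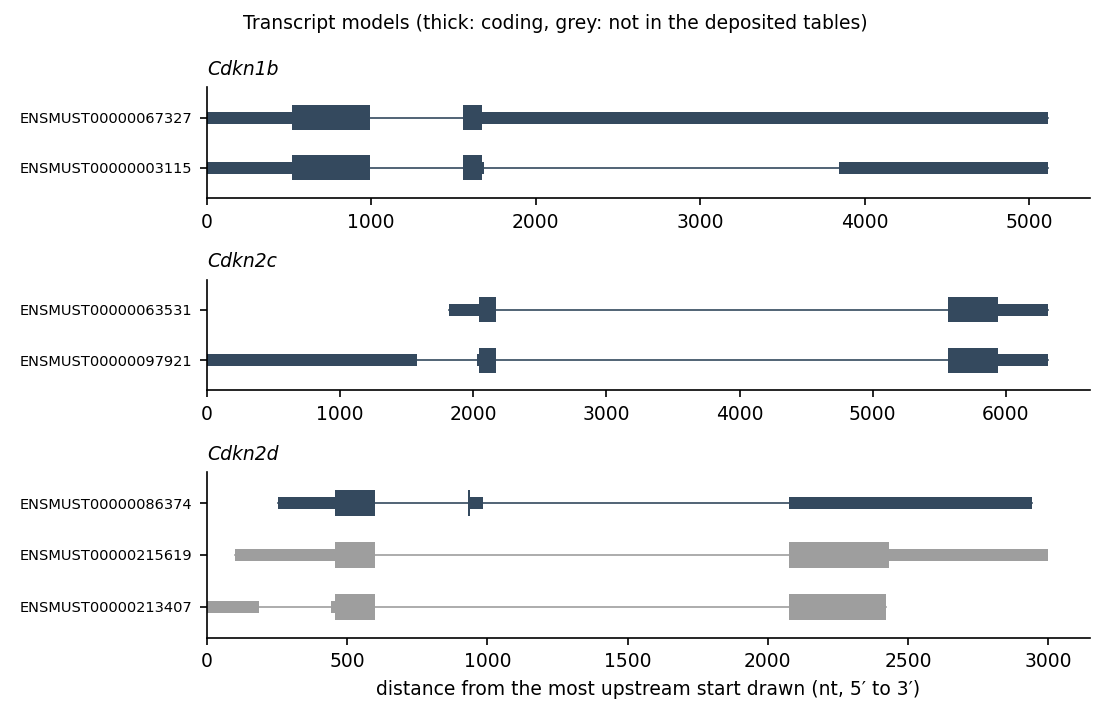
Annotated exons of Cdkn1b, Cdkn2c and Cdkn2d in GENCODE M21, drawn 5′ to 3′ as distance in nt from the most upstream start shown, with coding parts thick and models that are not in the deposited tables in grey. The Cdkn1b models differ by an intron after the coding sequence, the Cdkn2c models by a start 1817 nt apart, and the Cdkn2d model of the tables by a 52-nt middle exon.

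The bases before the starts of Cdkn1b and of the leading Cdkn2c form are shown because these are detected members with contrasting windows. Both are read 5′ to 3′ in the direction of the gene from RefSeq on GRCm38.p6 and end at the base before the start. For Cdkn2c 237 of the 250 bases are shown, because the rest lies in the first exon of the other form. Capitals mark matches to the motifs searched.
Cdkn1b: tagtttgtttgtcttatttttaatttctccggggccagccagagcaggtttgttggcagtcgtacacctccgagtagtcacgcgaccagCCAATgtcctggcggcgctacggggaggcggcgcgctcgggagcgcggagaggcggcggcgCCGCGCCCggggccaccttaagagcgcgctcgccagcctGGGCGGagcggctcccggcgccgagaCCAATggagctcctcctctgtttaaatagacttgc
Cdkn2c: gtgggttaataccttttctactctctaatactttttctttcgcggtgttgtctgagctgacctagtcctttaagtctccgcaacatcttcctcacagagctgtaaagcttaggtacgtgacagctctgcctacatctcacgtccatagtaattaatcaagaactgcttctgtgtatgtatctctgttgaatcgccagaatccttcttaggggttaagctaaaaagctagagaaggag
The Cdkn1b window, chr6:134920151-134920400 on the plus strand, has a GC content of 64.4%, and the Cdkn2c window, chr4:109665373-109665609 on the minus strand, 42.6%. The motifs, searched on both strands, were CCAAT (in 33.8% of 32851 promoter windows of 250 bases), the GC box GGGCGG (32.7%), the CACCC-type CCNCNCCC (45.9%), the GATA motif AGATAA (9.99%) and the E-box CACGTG (6.02%). The CACCC-type can overlap the GC box. The Cdkn1b window held CCAAT at 161 and 35 bases before the start, a GC box at 61 and a CACCC-type match at 100. The Cdkn2c window shown held none of the 5. Another Cdkn2c window, before a start at 109666756, did hold matches. Its CACCC-type matches were at 51, 46, 40 and 22 bases before that start and its GC boxes at 95, 51 and 40. The contrast with Cdkn1b is thus that of the window shown and not of the gene. The tables gave 9 windows for 6 members, and no window of a member held the GATA motif or the E-box. A match describes letters and not binding.

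Between the replicates, none of the 3 members with a mean count of at least 20 differed by over 2-fold. This was computed as log2(TPM + 1), replicate 1 minus replicate 2, centred on the median over 9878 genes with such a count, of which 62 (0.628%) differed by more. Cdkn1b was at 0.25 (counting interval 0.16 to 0.34), Cdkn2c at 0.03 (-0.10 to 0.17) and Cdkn2d at -0.20 (-0.30 to -0.10). Thus the interval excluded 0 for Cdkn1b and Cdkn2d in opposite directions. Of genes within 2-fold of the same count, 29.5% lay further from 0 than Cdkn1b, 88.0% further than Cdkn2c and 39.7% further than Cdkn2d. The pseudocount of 1 shrinks low values. On rescaled TPM no pseudocount was added and the ratios were not centred on the median. The rescaling itself adds 0.22 to every log2 ratio of deposited TPM, while the centring subtracted a median of -0.05. The 2 scales thus differ in their zero point. The rescaled log2 ratio of Cdkn1b was 0.53 (0.39 to 0.67), that of Cdkn2c 0.21 (0.05 to 0.36) and that of Cdkn2d -0.05 (-0.17 to 0.06). From that zero point the difference of Cdkn2d lay within counting error and that of Cdkn2c did not. With 1 effective length for both libraries the centred difference of Cdkn1b was 0.07.

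**Figure D4:**
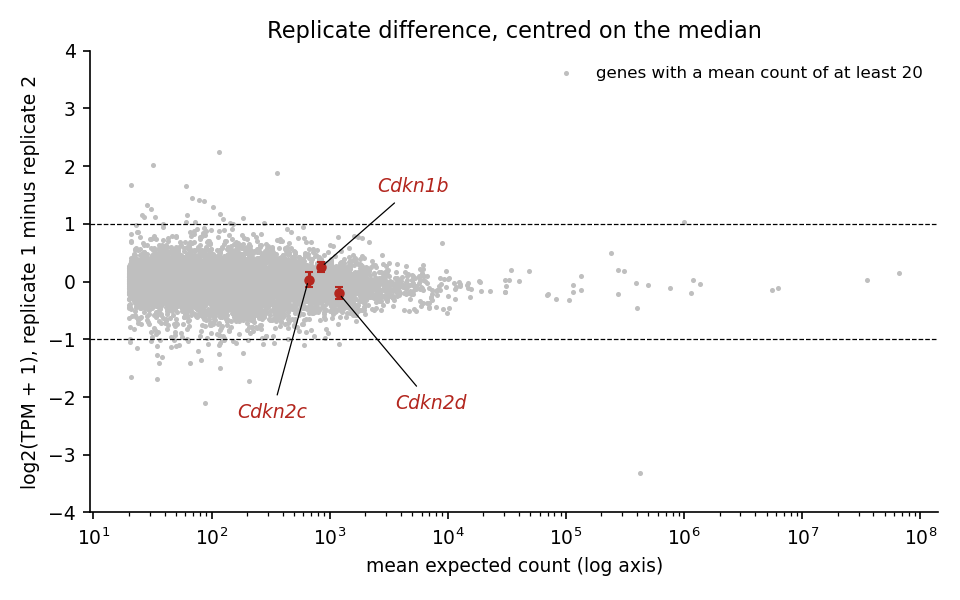
Centred difference in log2(TPM + 1) between replicate 1 and replicate 2 against the mean expected count on a log axis, for genes with a mean count of at least 20 (grey) and for the 3 detected CDK inhibitor genes with 95% counting intervals (red). Dashed lines mark a 2-fold difference, and all 3 red points lie between them, at 0.25, 0.03 and -0.20.

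Cdk4 and Cdk6, the kinases that INK4 proteins bind, were both below Cdkn2c and Cdkn2d in each library. Of the 4 kinase genes listed, 3 were at 1 TPM or more, beside 12.6% of nuclear protein-coding genes. That is the background at 1 TPM for the lists below as well. Cdk4 stood at 1.93 and 2.98 TPM and Cdk6 at 0.61 and 0.56 TPM, both partners of D-type cyclins. Cdk2, which acts with cyclins E and A, stood at 2.25 and 2.41 TPM, and Cdk1, the mitotic kinase, at 4.12 and 4.92 TPM. The 7 inhibitors summed to 15.56 and 17.04 TPM against 2.54 and 3.54 for Cdk4 with Cdk6, a ratio of 5.43-fold (log2 2.44 ± 0.25, SD, n = 2). The CIP/KIP sum and Cdk2 were close: the log2 ratio was -0.05 (-0.19 to 0.10) in replicate 1 and -0.34 (-0.50 to -0.18) in replicate 2. These are ratios of RNA and not of protein.

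Among cyclins, 6 of 9 were at 1 TPM or more. The D-type cyclins, which the INK4 proteins compete with, were nearly all Ccnd3, at 8.57 and 10.11 TPM, with Ccnd2 at 0.33 and 0.30 and Ccnd1 at 0.04 and 0.06. Per length, Ccnd3 and Cdkn2d could not be separated. The log2 ratio of Cdkn2d to Ccnd3 was -0.07 (-0.17 to 0.03) and -0.04 (-0.14 to 0.07). In expected counts Ccnd3 was the higher, at 2142 and 1995 against 1225 and 1154 for Cdkn2d. Ccna2 was the highest cyclin, at 18.64 and 20.62 TPM, and Ccne1 and Ccne2 stood at 3.52 and 3.63, and at 3.53 and 4.85 TPM. Of the pocket proteins, the substrates whose phosphorylation the inhibitors oppose, Rb1 was at 12.41 and 11.89 TPM, Rbl1 at 3.15 and 3.56, and Rbl2 at 0.68 and 0.63. Of 9 genes listed for CDK activation and its control, among them Cdc37, 2 were at 1 TPM or more, beside the background of 12.6%. They were the phosphatases Cdc25b at 8.21 and 10.22 and Cdc25c at 1.70 and 1.80. Pkmyt1, an inhibitory kinase of CDK1, was at 0.68 and 1.13. Cdk7, the kinase of the activating phosphorylation, was the lowest at 0.11 and 0.07.

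Of the genes that take part in the degradation of p27 and p21, 13 of 15 were at 1 TPM or more, with a median of 2.76 and 2.86 TPM over the list beside 0.01 and 0.02 over nuclear protein-coding genes. Rnf123 and Ubac1, the subunits of the KPC ligase that acts on p27 in the cytoplasm, were at 33.83 and 35.80, and at 31.37 and 36.13 TPM. Skp2, the F-box protein that recognises phosphorylated p27 in the nucleus, was at 1.00 and 1.02 TPM, and its cofactor Cks1b at 5.82 and 7.42. Rnf123 was 34.5-fold above Skp2 per length (log2 5.11 ± 0.04, SD, n = 2). The counts were closer, at 3656.61 and 3682.49 for Rnf123 and 499 and 423 for Skp2, so much of that ratio comes from the effective lengths. Pcna, which p21 binds, was at 23.86 and 24.78 TPM, and Cul4b, a scaffold of a ligase acting on p21, was the lowest of the list at 0.40 and 0.41.

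**Figure D5:**
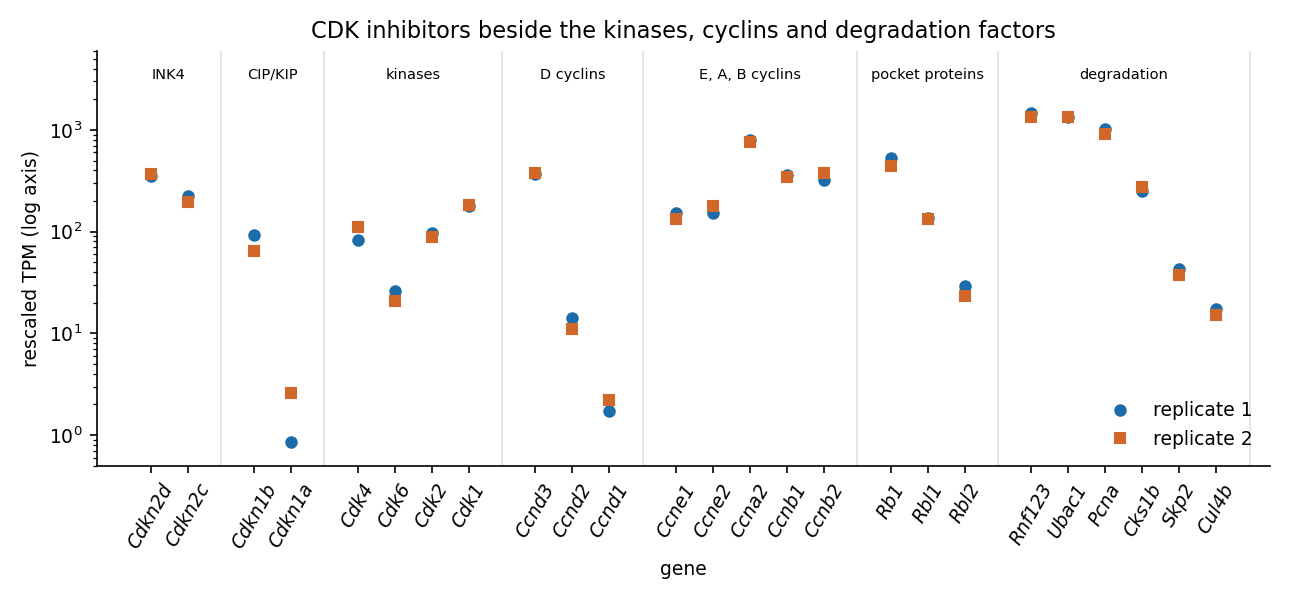
Rescaled TPM on a log axis of CDK inhibitor genes and of the kinases, cyclins, pocket proteins and degradation factors named in the text, with 1 point per library. Cdkn2d (352 and 365) lies beside Ccnd3, above Cdk4 and Cdk6, and below Rnf123, Ubac1 and Pcna.

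Of the transcription factors known to act on CDK inhibitor genes, 9 of 14 were at 1 TPM or more. The highest were E2f4 at 11.04 and 12.57 TPM, E2f2 at 6.83 and 7.65, and Klf1, an erythroid activator, at 6.27 and 9.00. Gata1 stood at 5.94 and 5.68, Myc at 1.12 and 1.22, and Zbtb17, the lowest by mean, at 0.34 and 0.04.

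In the p53 and ARF arm, 4 of 12 were at 1 TPM or more, beside the background of 12.6%. Npm1, which holds ARF in the nucleolus, was the highest at 9.55 and 11.39 TPM. The p53 regulators Mdm4 and Mdm2 stood at 2.80 and 2.55, and at 2.02 and 2.28 TPM. Trp53 itself stood at 1.80 and 1.06. The p53 targets Gdf15 and Phlda3 had 0 counts, beside 5 and 12 for Cdkn1a. The rest of the list had counts in both libraries. Trp53inp1 had 669 and 518, Ccng1 359 and 314, and Sesn2 125 and 108. Zmat3 had 85 and 31, Bax 23 and 34, and Bbc3 3 and 20.

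Polycomb complexes are known to repress the Cdkn2a and Cdkn2b locus. Of 16 genes listed, among them Kdm6b, a demethylase that opposes Polycomb, 3 were at 1 TPM or more in both libraries. The background was 12.6% of nuclear protein-coding genes. Judged on replicate 2 by itself, 5 passed, these 3 included. The 3 were Ezh2 at 9.46 and 8.62, Suz12 at 4.53 and 4.07, and Eed at 1.11 and 1.16 TPM, all subunits of PRC2. Bmi1, of PRC1, was at 0.05 and 0.35 TPM from 21 and 53 counts. Ezh1 stood at 0.78 and 1.62 and Rnf2, of PRC1, at 0.44 and 1.00 TPM, while Cbx2 had 0 counts.

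In the wider imprinted region around Cdkn1c, 2 of 11 genes listed were at 1 TPM or more, beside 12.6% of nuclear protein-coding genes. Kcnq1ot1 and H19 of the list are not protein-coding genes and lie outside that background. The 2 were Cd81 at 2.64 and 2.83 and Nap1l4 at 2.51 and 2.86. Tssc4 was at 0.26 and 0.30. Kcnq1ot1, the long noncoding RNA of the paternal copy, had 876 and 648 counts. Per length it was below Tssc4, at 0.08 and 0.07 TPM. Phlda2 had 0, and so had Igf2 and H19, which begin at 142650766 and 142575529, the furthest of the list from Cdkn1c. At 1 rescaled TPM more genes passed, beside the background of 44.6%. They were 4 of the 11 of this region, 13 of the 16 of the Polycomb list and 9 of the 12 of the p53 and ARF arm. Of the transcription factors 14 of 14 passed, and of the genes listed for CDK activation 9 of 9.

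The erythroid label was checked on 10 marker genes, and 10 of 10 were at 1 TPM or more. Of 67 markers in 7 lists of other cells, 24 were at 1 TPM or more, beside 12.6% of nuclear protein-coding genes. Of these, 10 were among the 12 granulocyte and monocyte markers. That list summed to 550 TPM in replicate 1 and 745 in replicate 2, with S100a9 the highest. The others were 6 of 10 macrophage markers, led by C1qb, 4 of 12 B and T lymphoid markers, led by Ighm, and 4 of 8 basophil, eosinophil and mast cell markers, led by Mcpt8. No stem and multipotent progenitor marker (0 of 9), megakaryocyte marker (0 of 8) or stromal and endothelial marker (0 of 8) reached 1 TPM in both libraries. Their summed rescaled levels were 49.2 and 41.1, 103 and 131, and 74.2 and 55.9. Kit, the highest of the stem and multipotent progenitor list by mean, stood at 0.43 and 0.36 TPM from 196 and 190 counts. Single markers went both ways: of the megakaryocyte list, Pf4 had 18 and 56 counts and Gp9 137 and 60, genes picked after their values were seen. Of the stromal and endothelial list, Cxcl12, its highest, had 544 and 255 counts, Pecam1 68 and 137, Cdh5 0 and 1, and Kdr 0 in both. The part of these other cells in the level of any CDK inhibitor gene, among them Cdkn1c in replicate 2, was not tested.

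Overlapping and close genes bear on the counts as well, since the use of strand is not given in the sources used here. An antisense gene overlaps Cdkn1c (Gm44732) and another gene overlaps Cdkn1a (AC167363.2) in GENCODE M21, and neither has a row in the tables, so reads of either strand could have been counted in these 2 members. Kri1 lies 441 bases from Cdkn2d on the same strand and had 61.81 and 117.95 counts against 1225 and 1154 for Cdkn2d. The closest genes to Cdkn2c and Cdkn1a on 1 side were Faf1, 9399 bases away with 663 and 520 counts, and Rab44, 13418 bases away with 58 and 63 counts.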

How the data were processed

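Gene and transcript tables of 2 libraries were used, 1 pair per library. Per the deposited file notes, quantification was on mm10 with GENCODE M4. For the aligner, the quantifier and strand use: not given in the sources used here. Per the file headers, the deposited expected counts are estimates and can be fractional. Deposited TPM is scaled per length to all rows, rRNA and spike-ins included, and the authors also give FPKM and a posterior mean TPM, per the file headers. Deposited transcript shares are a percent of the gene's transcripts, per the file headers.

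Names, positions and coding sequences came from GENCODE M21 (GRCm38) by identifier without version, and promoter windows from RefSeq. Coding windows of the other INK4 genes are not reported here. Poisson intervals (95%) and the floor of 3 counts were computed from expected counts. No group comparison was possible. Alternatives used pseudocount 0.1, other minimum levels, each library alone, no filter, expected counts in place of TPM, and edgeR 4.0.16 TMM or DESeq2 1.42.0 size factors on rounded counts. The 2-fold and transcript-share calls were tried on simulated data with counting noise only and changes set larger than the thresholds. The simulated 2-fold changes were placed in genes of higher TPM than Cdkn1b. The simulation thus cannot show how the calls do on low genes or with other noise. The named genes were all members, the kinases, cyclins and pocket proteins needed, the 3 highest and the lowest by mean of each other pathway list, genes named for their role, the highest marker of a list and the members' neighbours. The members and lists were chosen with earlier results of these data known. Python 3.11.15 and R 4.3.3 were used.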

Additional observations from a re-analysis of the deposited data

How the results depend on the processing

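The number of CDK inhibitor genes detected was 3, and 2 with a minimum of 2 TPM, which Cdkn1b misses in replicate 2. It was 3 under the other alternatives run. In expected counts in place of TPM, the log2 ratio of summed INK4 to summed CIP/KIP genes was 1.11 in place of 2.80, and that of Cdkn2c to Cdkn1b was -0.35 in place of 1.44, because no length enters. The number of genes over 2-fold apart between the replicates was 62 with a pseudocount of 1, 136 without the filter on low counts, 1025 with a pseudocount of 0.1, and 1799 with TMM scaling and 1799 with DESeq2 size factors, where the 1 is added to scaled counts and not to TPM. The centred ratio of Cdkn1b between the replicates was 0.25 with a pseudocount of 1, 0.41 with a pseudocount of 0.1, and 0.07 with 1 effective length for both libraries. Of the values of single genes and lists, 106 moved by less than the spread and 27 by more. No paired analysis was possible because there is 1 group. Depth limits Cdkn1a and Cdkn1c, with at most 19 counts, and the members at 0, and with 2 libraries no sign-flip test gives a p under 0.5.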
